A study of Mus musculus with 4 samples.

Results

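Open chromatin in wild type quiescent satellite cells was described from the 2 wild type ATAC-seq libraries of the series, without a contrast with the mdx libraries. ATAC-seq inserts sequencing adapters with the transposase Tn5 wherever DNA is accessible, so regions with many reads are read as open. The regions described are the 35010 nuclear regions of the authors' table of 35019, after 9 mitochondrial regions were left out. They were ranked by the mean of the 2 wild type values and by that mean per base of region. A region was called a promoter region where the table links it to a gene and its centre lies at most 1000 bp from that gene's start. This gave 11229 promoter regions, of which 10100 carry a gene name and represent 9767 genes. A further 3614 regions are linked to a gene but lie farther from its start, and 20167 regions are linked to no gene.

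The series holds satellite cells of mdx mice, a dystrophin-deficient strain, and of wild type mice, and 2 of its 4 libraries are wild type. The labels give the cells as quiescent satellite cells sorted by flow cytometry, with 10000 to 20000 cells per library treated with Tn5 at 37 °C for 30 min, and give no age, strain or sex. Per its design text the study used 3 mice for each condition, but the labels number the libraries 1 and 2, with nothing to say that these 2 came from separate animals, so their spread may be technical. All values are scaled reads, that is reads per region multiplied by 1 factor per library by the authors, and coordinates are mm10.

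Satellite cells are the stem cells of skeletal muscle. They lie between the muscle fibre and its basal lamina, stay out of the cell cycle in undamaged muscle, and are defined by the transcription factor Pax7. On injury they enter the cycle and express the myogenic factors Myf5 and Myod1, while signalling through Notch and the calcitonin receptor keeps them quiescent. In a sorted pool, fewer cells with an open region and less opening per cell cannot be told apart. A gene whose start has no listed region was not measured there, so a missing region is not a value of 0.

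The upstream sequences of the 5 satellite cell genes used as markers are shown because the table treats them differently: Pax7, Myf5 and Spry1 have a promoter region, Calcr has a region just outside the window, and Cdh15 has 0 promoter regions. Pdk4 and Jun are added because they rank first per base and first by mean among named promoters, so they were chosen for their values. Each is the 250 bases before the gene's RefSeq start, 5′ to 3′ on the gene's strand, from RefSeq's GRCm38.p6 table, and capitals mark matches on either strand to a GC box or a CCAAT box. The GC box was searched as the letters GGGCGG and the CCAAT box as the letters in its name. An AP-1 site was searched as TGANTCA, an E-box as CAGCTG and a TATA box as TATAAA, and these 8 windows held 0 matches to them. No motif overlapped another in these windows.
Pax7 chr4:139832969-139833218, minus strand: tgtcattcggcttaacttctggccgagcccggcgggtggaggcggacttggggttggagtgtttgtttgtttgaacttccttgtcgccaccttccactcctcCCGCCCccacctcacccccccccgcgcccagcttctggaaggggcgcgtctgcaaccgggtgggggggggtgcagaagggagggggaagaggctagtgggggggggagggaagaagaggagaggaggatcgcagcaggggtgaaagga
Myf5 chr10:107486135-107486384, minus strand: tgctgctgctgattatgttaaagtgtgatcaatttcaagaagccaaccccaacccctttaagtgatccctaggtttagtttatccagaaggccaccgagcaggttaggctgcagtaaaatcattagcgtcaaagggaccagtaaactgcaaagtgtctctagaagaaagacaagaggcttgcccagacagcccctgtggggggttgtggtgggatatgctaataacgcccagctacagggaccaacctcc
Spry1 chr3:37639697-37639946, plus strand: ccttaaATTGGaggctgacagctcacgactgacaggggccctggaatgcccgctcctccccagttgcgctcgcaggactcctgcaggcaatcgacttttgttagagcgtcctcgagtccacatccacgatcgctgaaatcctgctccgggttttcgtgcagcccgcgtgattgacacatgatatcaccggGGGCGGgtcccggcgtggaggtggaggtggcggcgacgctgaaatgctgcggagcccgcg
Calcr inner start chr6:3763624-3763873, minus strand: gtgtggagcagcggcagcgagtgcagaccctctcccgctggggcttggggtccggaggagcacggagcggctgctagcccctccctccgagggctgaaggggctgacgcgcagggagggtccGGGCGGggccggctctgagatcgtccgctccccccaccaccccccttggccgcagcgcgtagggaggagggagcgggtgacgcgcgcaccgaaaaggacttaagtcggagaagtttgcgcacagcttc
Calcr outer start chr6:3764714-3764963, minus strand: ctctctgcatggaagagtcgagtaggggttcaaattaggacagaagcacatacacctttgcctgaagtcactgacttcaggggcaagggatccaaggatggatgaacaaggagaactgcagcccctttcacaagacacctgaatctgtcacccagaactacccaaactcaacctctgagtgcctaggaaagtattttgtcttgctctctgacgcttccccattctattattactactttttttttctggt
Cdh15 chr8:122848124-122848373, plus strand: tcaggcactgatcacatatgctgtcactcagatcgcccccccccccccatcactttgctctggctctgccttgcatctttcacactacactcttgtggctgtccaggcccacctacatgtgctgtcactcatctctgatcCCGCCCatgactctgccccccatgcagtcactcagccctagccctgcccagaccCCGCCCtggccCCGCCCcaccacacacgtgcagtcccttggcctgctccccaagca
Pdk4 chr6:5496279-5496528, minus strand: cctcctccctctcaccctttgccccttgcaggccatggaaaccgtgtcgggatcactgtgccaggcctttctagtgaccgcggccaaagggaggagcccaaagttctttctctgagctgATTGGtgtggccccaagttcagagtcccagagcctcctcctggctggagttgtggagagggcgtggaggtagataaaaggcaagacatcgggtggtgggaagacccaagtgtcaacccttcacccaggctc
Jun chr4:95052223-95052472, minus strand: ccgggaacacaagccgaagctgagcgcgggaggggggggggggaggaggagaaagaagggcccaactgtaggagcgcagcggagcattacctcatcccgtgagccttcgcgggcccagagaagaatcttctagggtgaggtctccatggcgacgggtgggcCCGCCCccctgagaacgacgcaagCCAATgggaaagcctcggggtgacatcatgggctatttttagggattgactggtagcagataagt

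Over the table's 32841 upstream windows, 32.7% hold the GC box letters, 33.9% those of the CCAAT box, 6.8% those of the AP-1 site, 13.0% those of the E-box and 12.4% those of the TATA box. A match is a string of letters and not a site, and the lack of one says only that these letters are not in the window. The listed regions covered 97.2% of the Pax7 window, 89.6% of the Spry1 window and 37.6% of the Myf5 window. They covered all bases of the inner Calcr, Pdk4 and Jun windows, and 0 bases of the outer Calcr and Cdh15 windows. The inner Calcr window holds 24 CpG dinucleotides and has a GC content of 70.8%, whereas the outer one holds 2 and has 46.0%. The Myf5 window, with 3 CpG, lies closer to the outer Calcr window in this respect than to those of Pax7, with 13, or Spry1, with 23.

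Promoters held most of the signal. Promoter regions made up 32.1% of the nuclear regions but 62.7% of the nuclear signal in replicate 1 and 59.6% in replicate 2. Unlinked regions made up 57.6% of the regions and held 29.5% and 32.4% of the signal. Promoter regions were also wider, with a median of 524 bp against 282 bp, so levels are compared per 1000 bases of region below. On that scale the median was 231 scaled reads for promoter regions, 141 for other linked regions and 117 for unlinked ones. The signal was concentrated, with 25% of it in 1152 regions and 50% in 3801, or 10.9% of all regions.

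**Figure D1:**
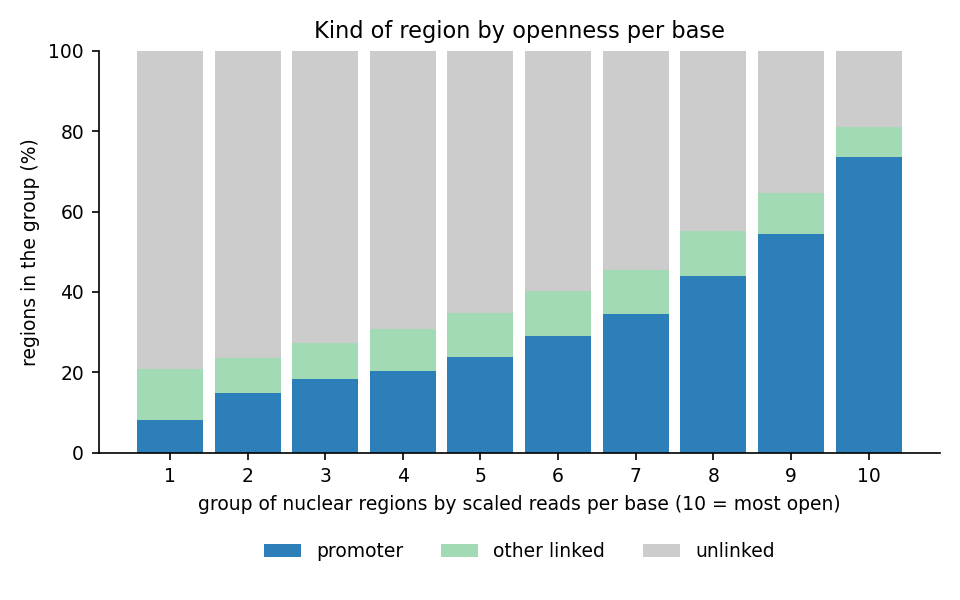
Share of promoter, other linked and unlinked regions (y axis, percent) in each of 10 equal groups of the 35010 nuclear regions ordered by scaled reads per base (x axis, 10 is the most open). The share of promoter regions rises at every step, from 8.05% in the lowest group to 73.5% in the highest, while that of unlinked regions falls from 79.1% to 18.9%.

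Seen from the promoters, 22.9% of promoter regions were in the most open 10%, against 3.28% of unlinked ones, and that 10% began at 419.5 scaled reads per 1000 bases. The level followed the distance to the linked gene's start. Regions centred within 100 bp of it had a median of 243 scaled reads per 1000 bases, those at 101 to 500 bp 236, and those at 501 to 1000 bp 154. Regions at 1001 to 5000 bp had a median of 142. The window's edge marked no drop, with 152 at 900 to 1000 bp and 177 at 1001 to 1100 bp. Just inside the edge lie Magee1, Cflar and Il12b at 1000, 999 and 998 bp, with 101, 320 and 161 scaled reads per 1000 bases. Just outside lie Nasp, Fgd1 and Calcr at 1003, 1004 and 1006 bp, with 150, 151 and 459. Promoter regions of protein-coding genes had a median of 243 scaled reads per 1000 bases against 148 for those of lincRNA genes.

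The first 100 regions by mean held 92 promoter regions, 7 other linked regions and 1 unlinked region. Per base, the first 100 held 90, 8 and 2, and 65 regions were in both lists. Lists of 100 taken from each library alone shared 84 regions by mean and 80 per base. The first 100 ended at a mean of 1229.5 scaled reads, with 1227.5 for the next region.

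Jun and Pdk4 had the highest named promoter regions. Jun, an AP-1 transcription factor, had 2912 scaled reads in replicate 1 and 2442 in replicate 2 over 1983 bp (2677 ± 332, SD, n = 2). Pdk4, a kinase that inhibits pyruvate dehydrogenase and so limits glucose oxidation, had 2698 and 2655 over 1084 bp (2676.5 ± 30.4). The 2 means lay within the spread between libraries, so their order by mean is not resolved. Per 1000 bases Pdk4, at 2469, was first of all nuclear regions and Jun, at 1350.0, was at rank 106.

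Among the other named promoters in the first 10 by mean, Gsk3b, a kinase of the Wnt and insulin pathways, had 2446 and 2038 scaled reads, and Sp4, a transcription factor that binds GC boxes, had 2255 and 2134. Atp2b1, a calcium pump of the plasma membrane, had 2149 and 2164. Sertad2 had 2323 and 1818, and Pja2, a ubiquitin ligase, had 2293 and 1798. These 2 showed the widest gaps between the libraries of the 10. Rtn4, a protein of the endoplasmic reticulum, had 1966 and 1791, Pcmtd1 had 1923 and 1822, and Hbp1, a repressor of cell cycle genes, had 1863 and 1792. Of the 10, Atp2b1 alone was higher in replicate 2.

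Per base, Pdk4 was followed by Pcmtd1 at 2385 scaled reads per 1000 bases and Sertad2 at 2108. Hspa13, a member of the Hsp70 family, had 2025 per 1000 bases, Gtdc1 2017, Pja2 2001 and Evi5l 1962. Pex2, a peroxisome assembly factor, had 1911, Arrdc4, an arrestin-domain protein, 1895, and Leprot 1885. Narrow regions gained by this ranking: Hspa13, with 1449 and 1082 scaled reads over 625 bp, was at rank 93 by mean and rank 5 per base. None of these 10 genes is in the satellite cell list described below.

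Some of the highest regions lay outside the named promoters. The region with the highest mean of all was linked to Gm21738, 1240 bp from its start, with 6954 and 7223 scaled reads over 3929 bp. It was the only one of the 65 regions wider than 3000 bp to reach a mean of 1000, and how reads with several possible positions were counted is not stated in the labels. The second highest, chr9:94537322-94538944, is a promoter region of a gene that the table leaves unnamed, with 3235 and 2909 scaled reads. Its centre lies 52 bp from the RefSeq start of Dipk2a. Other linked regions in the first 100 included those of Nr3c2, the mineralocorticoid receptor, with 1365 and 1170, and Sesn3, a stress-response gene, with 1357 and 1176. Their centres lay 199 bp and 18 bp from a RefSeq start of the same gene, although 2359 bp and 1216 bp from the start the table uses.

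The unlinked region with the highest mean, chr5:73490581-73491277, had 1583 and 1236 scaled reads, or 2025 per 1000 bases, which placed it at rank 4 of all regions per base. It lies inside Dcun1d4 and its centre is 97 bp from a RefSeq start of that gene. The next, chr11:20631274-20632439, with 1184 and 957, lies inside Sertad2, 120 bp from a second RefSeq start. A further one, chr13:35740653-35741839, with 1018 and 842, lies 156 bp from a RefSeq start of Cdyl, a chromatin regulator. So at least 3 of the 10 highest unlinked regions sit at starts that the deposited annotation did not use. The RefSeq table of starts is not complete, so such counts are lower bounds. Among all 20167 unlinked regions at least 795, or 3.94%, lay within 1 kb of a RefSeq start. So did at least 19 of the 100 highest by mean.

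For 6 of the other unlinked regions among the 10 highest by mean, the nearest start in the RefSeq table, which is not complete, lay at least 7258 bp away. The region chr15:67176542-67177281 inside St3gal1, a sialyltransferase gene, had 1259 and 827 scaled reads, the widest gap between the libraries of these 10. The nearest start listed for it is that of another gene, Gm31342, 137318 bp away. Whether it sits at a start of St3gal1 cannot be told from these starts. The region chr14:77484782-77485654 inside Enox1 had 1114 and 971. The region chr2:124609771-124610781 inside Sema6d, a semaphorin gene, had 1110 and 897. All 3 were higher in replicate 1.
The region chr15:38470365-38471224, 16.6 kb from Azin1, had 1088 and 909 scaled reads, and chr11:11844367-11845303 inside Ddc had 963 and 980. The region chr17:17837814-17838652, where Has1 and Spaca6 overlap, had 927 and 905. The remaining one lies 294 kb from its nearest protein-coding gene, Ss18, and had 944 and 921. Those last 3 regions differed little between the libraries.

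Ranking per base brought further unlinked regions into the first 10. A region inside Tek, the angiopoietin receptor of endothelial cells, chr4:94752335-94753044, had 916 and 838 scaled reads, or 1237 per 1000 bases. One inside Utrn, the dystrophin homologue utrophin, chr10:12821129-12821713, had 760 and 647, or 1205 per 1000 bases. A region 79.1 kb from Cxcr4, a chemokine receptor, chr1:128508822-128509350, had 682 and 586, or 1201 per 1000 bases. The one 109.2 kb from Jun, chr4:95161043-95161702, had 898 and 708, and others lay inside Etl4, with 795 and 686, and 209.6 kb from Ano5, with 834 and 857. These distances say which gene is nearest and not which gene a region acts on.

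Of all unlinked regions, 47.3% lay inside a RefSeq protein-coding gene and 18.5% more than 100 kb from one. Their median levels were close, at 118 scaled reads per 1000 bases inside genes and 116 outside. The 100 highest by mean had 43 inside a gene.

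Of the 5 markers, 3 had a promoter region, and at Pax7 and Calcr the most open region lay away from the start. Myf5, a myogenic transcription factor, had the most open marker promoter. Its region chr10:107485740-107486228 had 241 and 189 scaled reads, or 441 per 1000 bases, above 76.7% of the 9767 genes, and a second promoter region had 186 and 182, or 469 per 1000 bases. Both were in the most open 10% of nuclear regions. The neighbouring gene Myf6, a related factor, had 0 promoter regions but 2 other linked regions, the higher with 75 and 72 scaled reads.

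The Pax7 promoter was near the middle of all genes. Its region chr4:139832976-139833427 had 93 and 124 scaled reads, or 241 per 1000 bases, above 48.4% of genes. Openness at this gene was higher away from the start. An unlinked region inside the gene, chr4:139771072-139771860 61502 bp from the start, had 498 and 610 scaled reads, or 703 per 1000 bases. An unlinked region 39.05 kb beyond the end of the gene, chr4:139697717-139698292, had 412 and 367, or 677 per 1000 bases. Both were in the most open 10%, above every other one of the 8 regions within 50 kb of Pax7, and in both libraries each was higher per base than the promoter.

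Spry1, an inhibitor of receptor tyrosine kinase signalling that satellite cells need to return to quiescence, had a promoter region with 260 and 213 scaled reads, or 297 per 1000 bases. This was above 59.3% of genes. Its 4 unlinked neighbours within 50 kb had 109 to 295 per 1000 bases, none of them in the most open 10%.

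Calcr encodes the calcitonin receptor, a quiescence gene. By the rule it had 0 promoter regions, because the centre of its linked region chr6:3763381-3764034 lies 1006 bp from the start the table uses. That region had 346 and 254 scaled reads, or 459 per 1000 bases, and its centre lies 84 bp upstream of the inner RefSeq start, whose CpG-rich sequence is printed above. The outer RefSeq start had 0 listed regions. Inside the gene an unlinked region, chr6:3741160-3741763, had 442 and 474, or 760 per 1000 bases, the highest value per base at any of the 5 markers.

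Cdh15 encodes M-cadherin, which joins the satellite cell to the muscle fibre. It had 0 promoter regions, and its printed upstream window, with 3 matches to the GC box, is covered by none. Its linked regions lay 2891 bp and 3944 bp from the start, with 110 and 127 scaled reads, or 309 per 1000 bases, and with 40 and 53, or 189 per 1000 bases. Cdh15 had the lowest summed signal of the 5 markers within 50 kb, 204 scaled reads in replicate 1 and 251 in replicate 2, against 1399 and 1579 at Pax7. These spans include the gene itself and so differ in length, with 4 regions at Cdh15 and 8 at Pax7.

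**Figure D2:**
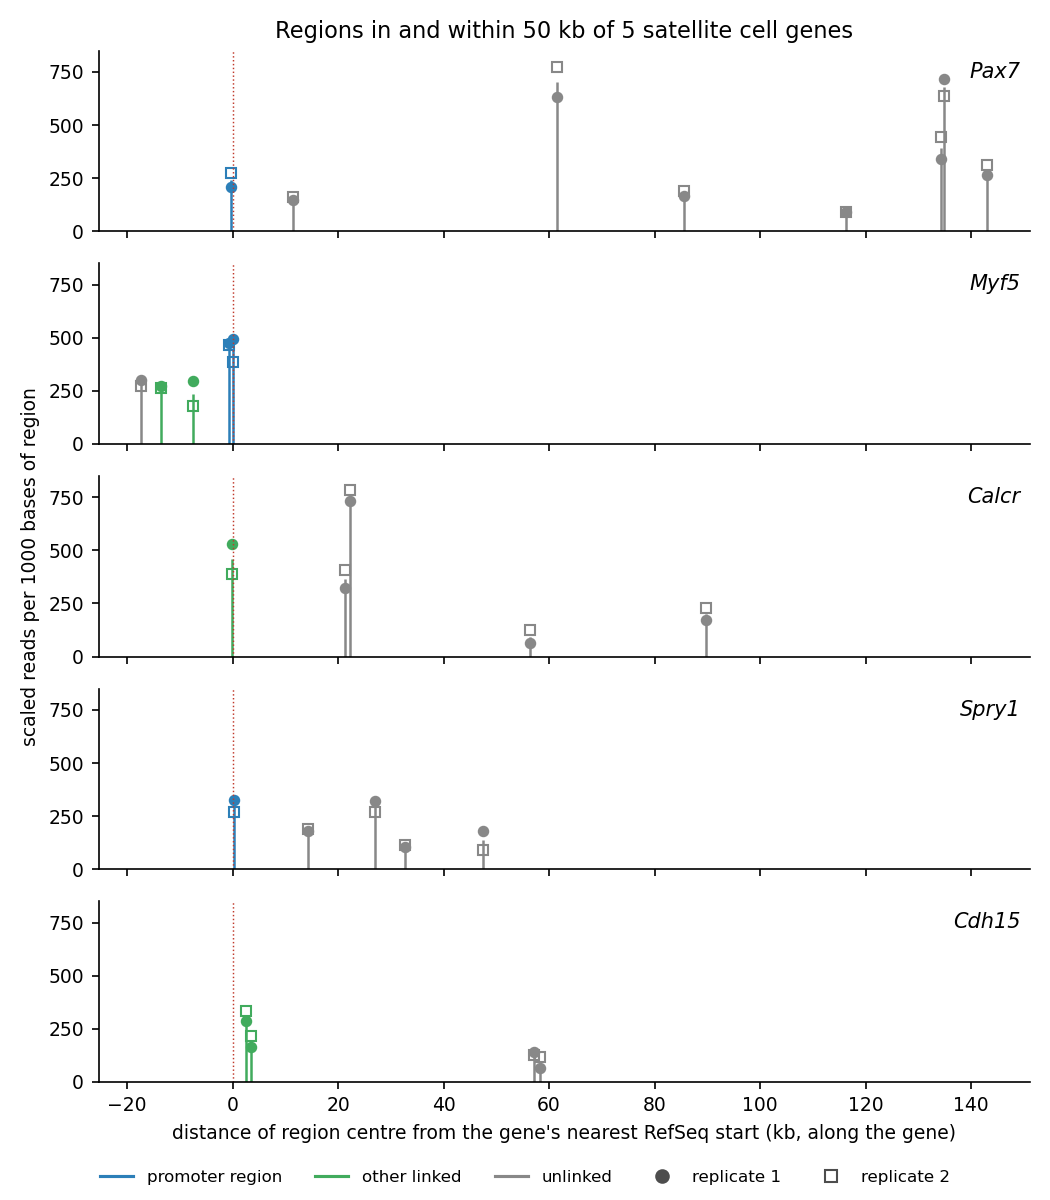
Scaled reads per 1000 bases (y axis) of every region inside or within 50 kb of Pax7, Myf5, Calcr, Spry1 and Cdh15, by the distance of its centre from the gene's nearest RefSeq start (x axis, kb, positive into the gene). Circles are replicate 1, squares replicate 2 and vertical lines their mean; at Pax7 and Calcr the tallest lines, at 703 and 760, stand away from the start, and at Myf5 and Spry1 they stand at it.

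The 40 genes of satellite cell identity and quiescence were mostly open at the promoter: 32 had a promoter region (80%), beside 45.5% of all 20422 RefSeq protein-coding genes. Of the 32, 11 were in the most open 10% of nuclear regions, where 25.3% of all genes with a named promoter region were. Their median lay at percentile 64.3 of genes per base, against 50 for all genes by construction. The percentile is the share of the 9767 genes with a lower promoter region per base, each gene taken by its promoter region with the highest mean.

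The highest were Hey1, a Notch target, with 917 and 872 scaled reads (859 per 1000 bases), Itgb1, the integrin that anchors the cell to its niche, with 854 and 636 (737 per 1000 bases), and Met, the receptor for hepatocyte growth factor, with 627 and 542 (702 per 1000 bases). The cell cycle inhibitor Cdkn1b followed with 465 and 430, or 604 per 1000 bases. The lowest were Lgr5, a Wnt co-receptor, with 18 and 15 scaled reads (78.2 per 1000 bases), and Pax3, the Pax7 paralogue, with 92 and 58 (132 per 1000 bases). The members thus spanned more than the range between the marker promoters.

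By role, Notch genes covered most of that range. The receptor Notch2 had 282 scaled reads per 1000 bases and Notch1 177. Notch3 had 0 promoter regions and a linked region at 2570 bp with 48 and 55 scaled reads. Of the targets, Hes1 had 464 per 1000 bases and Heyl 376, both under Hey1. Rbpj, the DNA-binding partner of Notch, had 0 promoter regions by the deposited starts but a region within 1 kb of a RefSeq start with 649 and 486 scaled reads, or 781 per 1000 bases. The Notch genes therefore ranged from below the median gene to near the top.

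Transcription factors and surface proteins varied widely too. The homeobox factor Six4 had 196 scaled reads per 1000 bases. Foxo3, a quiescence factor, had 487, and Msc, a repressor of myogenic factors, had 320. Among surface proteins, the tetraspanin Cd82 had 528 per 1000 bases, the chemokine receptor Cxcr4 395, the proteoglycan Sdc4 325 and Cd34 264. The growth factor receptors Fgfr1 and Fgfr4 had 211 and 143. Besides Calcr, Cdh15, Notch3 and Rbpj, the 4 genes with 0 promoter regions were Itga7, Vcam1, Sdc3 and Tenm4. Itga7, the laminin-binding integrin used to sort these cells in many studies, had a linked region at 2228 bp with 38 and 25 scaled reads, and Vcam1, an adhesion molecule, one at 3223 bp with 193 and 175. Sdc3 and Tenm4 had 0 linked regions.

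**Figure D3:**
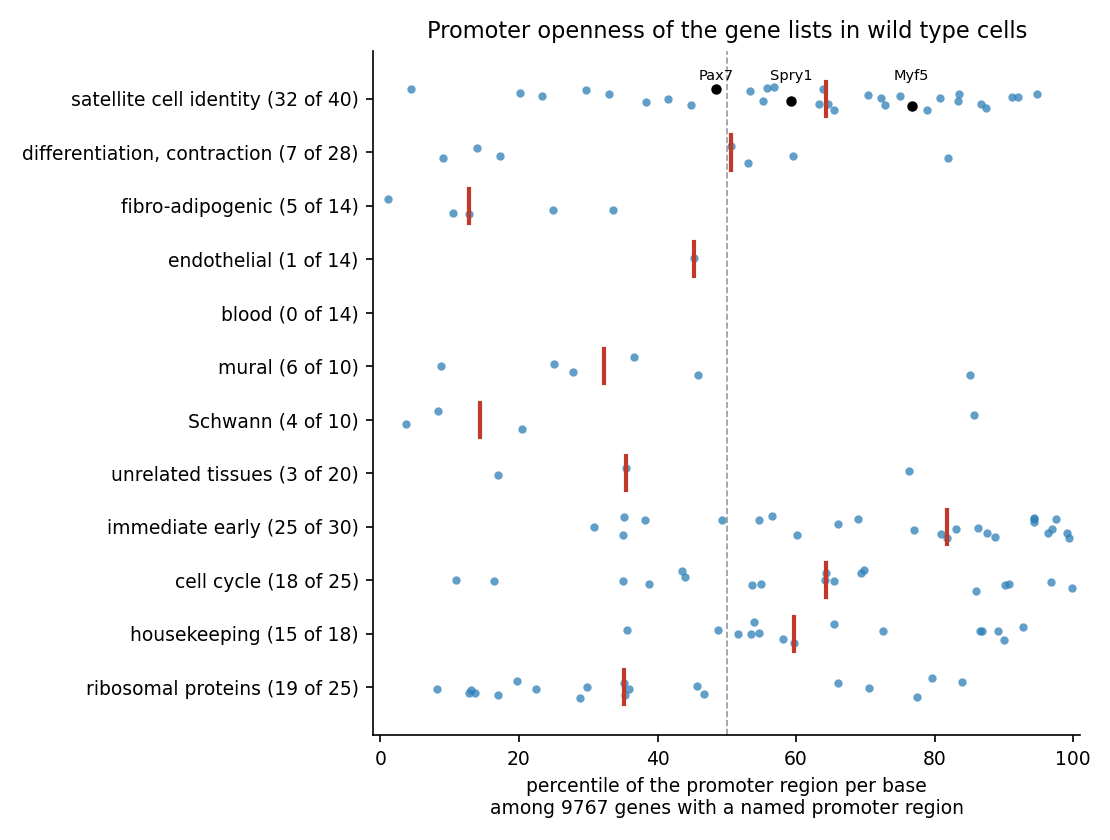
Percentile of each gene's promoter region per base among 9767 genes (x axis) for the 12 gene lists (y axis, with the number of genes that have a promoter region of the number listed). Points are genes, black points are Pax7, Spry1 and Myf5, red bars are list medians and the dashed line is the median gene; medians run from 12.8 for the fibro-adipogenic list to 81.8 for the immediate early list, and the blood list has 0 points.

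Of 28 genes of differentiation and contraction, 7 had a promoter region (25%), beside 45.5% of all protein-coding genes. Of the 7, 1 was in the most open 10%, beside 25.3% of all genes with a named promoter region. The list median lay at percentile 50.6. Mylpf, a fast myosin light chain, had 475 and 364 scaled reads, or 504 per 1000 bases, near the deposited start but with 0 listed regions within 1 kb of its RefSeq start. The determination factor Myod1 had 140 and 162, or 298 per 1000 bases, and Mef2d, a partner of the myogenic factors, 241 and 204, or 262 per 1000 bases. The lowest were Casq1, the calcium store protein of muscle, with 113 per 1000 bases, and Pvalb, a calcium buffer of fast fibres, with 96.2. The determination factors Myf5 and Myod1 thus each had a promoter region, while Myog, the differentiation factor, had 0 linked regions.
Of the 21 genes of this list with 0 promoter regions, 8 had another linked region. These were Myf6, Cdkn1a, Myh3, Ttn, Neb, Tnnt1, Myh2 and Myh7, with Myh2 highest, at 165 and 192 scaled reads 1498 bp from its start. Besides Myog, Mef2c, Mymk, Mymx, Myh8, Ckm, Acta1, Tnnt3, Tnni2, Myh4, Ryr1, Cacna1s and Mb had 0 linked regions.

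Of the cells that a sort could also hold, blood and endothelial cells had the fewest markers with a promoter region. Of all protein-coding genes, 45.5% had a promoter region. All 14 blood markers, among them Ptprc (CD45), Spi1, Adgre1, Itgam, Tyrobp, Cd68, Cd3e, Cd79a, Lyz2, Coro1a, Fcer1g and Laptm5, had 0 promoter regions, and Csf1r alone had a linked region, with 9 and 15 scaled reads. Of the 14 endothelial markers only Tek had a promoter region, with 131 and 146 scaled reads, or 227 per 1000 bases. Pecam1, Cdh5, Kdr, Tie1, Emcn, Egfl7, Vwf, Cldn5, Erg, Sox17, Sox18 and Fabp4 had 0 linked regions, and Esam had 1, with 67 and 58. The intronic Tek region given above was far more open than the Tek promoter.

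Fibro-adipogenic progenitors are the mesenchymal cells of muscle. Of their 14 markers 5 had a promoter region (35.7%, beside 45.5% of all protein-coding genes). Of the 5, 0 were in the most open 10%, beside 25.3% of all genes with a named promoter region. The list median was at percentile 12.8. The collagen genes Col3a1, Col1a2 and Col1a1 had 179, 148 and 109 scaled reads per 1000 bases, the transcription factor Osr1 101 and the proteoglycan Dcn 55.1. The 5 summed to 185 scaled reads in replicate 1 and 221 in replicate 2, and the 32 satellite cell promoters to 8305 and 7296. These lists differ in length, so the sums do not measure the share of each kind of cell. Their medians were 109 and 327 scaled reads per 1000 bases. Pdgfra, which defines these progenitors, had a linked region at 4157 bp with 97 and 102 scaled reads. Dpt, a matrix protein, had an exceptional linked region 2088 bp from its start with 732 in each library, or 1164 per 1000 bases. Clec3b had one with 164 and 116, and Ly6a, Lum, Twist2, Mfap5, Pi16 and Cd248 had 0 linked regions.

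Of 10 mural markers, 6 had a promoter region (60%), a share above the 45.5% of all protein-coding genes, summing to 636 and 607 scaled reads, with a median at percentile 32.2. The potassium channel subunit Kcnj8 was highest, with 309 and 248 scaled reads (556 per 1000 bases), followed by the actin Acta2 with 81 and 155 (230 per 1000 bases) and the myosin Myh11 with 38 and 28 (190 per 1000 bases). The lowest were Abcc9, the partner subunit of Kcnj8, with 149 per 1000 bases, and Mcam with 94.9. Rgs5, Cspg4 and Tagln had 0 linked regions and Cnn1 had 1, with 88 and 111 scaled reads. Kcnj8 alone held the largest part of the sum in both libraries.

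Of 10 Schwann cell markers, 4 had a promoter region (40%, near the 45.5% of all protein-coding genes), summing to 618 and 594, with a median at percentile 14.4. Egr2, which is also an early response gene, had 506 and 520 scaled reads (569 per 1000 bases) and so most of that sum, Ngfr had 133 per 1000 bases, Mbp 93.1 and Erbb3 74.7. The defining factor Sox10 had 0 linked regions, as did Cdh19 and Foxd3, while Pmp22 had a region within 1 kb of a RefSeq start with 403 and 337 scaled reads. How far other cells contribute to any region was not tested.

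Of 20 genes of liver, neurons, pancreas, epithelium and germ cells, 3 had a promoter region (15%, beside 45.5% of all protein-coding genes). They were Dazl, a germ cell gene, with 210 and 172 scaled reads (436 per 1000 bases), and the synaptic genes Snap25 and Syt1 with 186 and 123 per 1000 bases. Sycp3 and Slc17a7 had another linked region. Alb, Apoa1, Ttr, Serpina1a, Cyp2e1, Rbfox3, Gad1, Ins2, Gcg, Krt5, Krt14, Epcam, Cdh1, Ddx4 and Prm1 had 0 linked regions. Dazl stood apart in this list, with a promoter above 76.3% of genes.

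Immediate early and stress genes, which cells switch on within minutes of a stimulus, had the highest median of the lists. Of 30 genes, 25 had a promoter region (83.3%), beside 45.5% of all protein-coding genes. Of the 25, 15 were in the most open 10%, beside 25.3% of all genes with a named promoter region. The list median was 503 scaled reads per 1000 bases, at percentile 81.8. After the zinc finger gene Klf6, with 1311 and 1126 scaled reads (1488 per 1000 bases), came Jun and the transcription factor Cebpd, with 1206 and 1122 (1051 per 1000 bases).

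The AP-1 genes, whose products bind the AP-1 site as pairs, spanned a wide range. Jun had 1350.0 scaled reads per 1000 bases, Fosl2 835, Junb 609, Jund 579, Fos 523 and Fosb 245. Fosb, with 121 and 111 scaled reads, was just below the median gene and the other 5 were in the most open 10%, though the Jund region lies more than 1 kb from its RefSeq start. Klf4 and Myc, transcription factors of pluripotency and growth, had 1003 and 967, and the heat shock genes Hspa8 and Dnajb1 840.1 and 835.
The lowest members were Hspa1b, with 125 and 133 scaled reads (184 per 1000 bases), and the growth arrest gene Gadd45g, with 49 and 50 (168 per 1000 bases). Hspa1b has a near-identical neighbour, Hspa1a, with 35 and 28, so how reads were split between them is uncertain. Of the 5 genes with 0 promoter regions, Atf3 and Zfp36 had a region within 1 kb of a RefSeq start, with 414 and 382 and with 255 and 186. Klf10 had a linked region 1350 bp away with 1325 and 1157 scaled reads, which would be above 99.5% of genes per base, and Ier3 and Rhob had 0 linked regions. Of the 25 promoters, 14 were higher in replicate 1, beside 66.0% of all promoter regions.

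Promoter regions of cell cycle genes were listed in these cells, which the labels call quiescent. Of 25 genes, 18 had a promoter region (72%), beside 45.5% of all protein-coding genes, and the median was at percentile 64.3. Of the 18, 5 were in the most open 10%, a share near the 25.3% of all genes with a named promoter region. Ccna2, the cyclin of S phase and mitosis, had 1029 and 737 scaled reads, or 1766 per 1000 bases, above 99.8% of genes. The replication helicase subunits Mcm3 and Mcm5 had 749 and 511 (995 per 1000 bases) and 385 and 369 (692 per 1000 bases). The proliferation marker Mki67 had 172 and 148, or 371 per 1000 bases. The mitotic kinases Aurkb and Plk1 were lowest, at 121 and 102 per 1000 bases. An open promoter is not a measure of transcription.
The cyclin D genes had 0 promoter regions by the deposited starts, with Ccnd3 at a RefSeq start (120 and 112 scaled reads), Ccnd1 at a linked region 1736 bp away (67 and 109) and Ccnd2 with 0 linked regions. Of the other genes with 0 promoter regions, Mcm7 had a region within 1 kb of a RefSeq start that the table links to Ap4m1, with 94 and 87, and Ccnb2, Mcm4 and Pcna had 0 linked regions.

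Housekeeping and ribosomal protein genes were included as genes that every cell uses. Of 18 housekeeping genes 15 had a promoter region (83.3%), beside 45.5% of all protein-coding genes. Of the 15, 5 were in the most open 10%, beside 25.3% of all genes with a named promoter region. The list median was at percentile 59.7. B2m, Gapdh and Pgk1 were highest, at 766, 669 and 647 scaled reads per 1000 bases, and Polr2a and Tfrc lowest, at 242 and 186. Of the 3 others, Hprt has a promoter region in the table under its older symbol Hprt1, 91 bp from the start, with 299 and 247 scaled reads. Sdha had a region within 1 kb of its RefSeq start that the table links to Ccdc127, with 183 and 181, and Tubb5 had 0 linked regions. Hprt was the only unlisted member of any list found under an older symbol.
Of 25 ribosomal protein genes 19 had a promoter region (76%), beside 45.5% of all protein-coding genes. Of the 19, 3 were in the most open 10%, beside 25.3% of all genes with a named promoter region. The list median was at percentile 35.1. Rps6, Rps19 and Rpl7 were highest, at 539, 472 and 449 scaled reads per 1000 bases, and Rpl23 and Rpl10a lowest, at 109 and 92.5. Rpl3, Rpl4, Rpl8 and Rps27a were among those with 0 linked regions. These genes have many pseudogene copies, so their values are uncertain. Counting Hprt and Sdha, 17 of 18 housekeeping genes had a region at a start, while 6 of 25 ribosomal protein genes, which every cell uses, had 0 linked regions. Absence of a region does not mean a closed promoter.

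The 2 wild type libraries ranked the regions alike. Across the 35010 regions, which are not replicates, Pearson's r of log2(value + 1) was 0.938 and Spearman's rho was 0.946. Promoter regions gave a Spearman's rho of 0.977 and unlinked regions 0.903. The regions share the libraries and their width, so these coefficients describe the pair only.

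**Figure D4:**
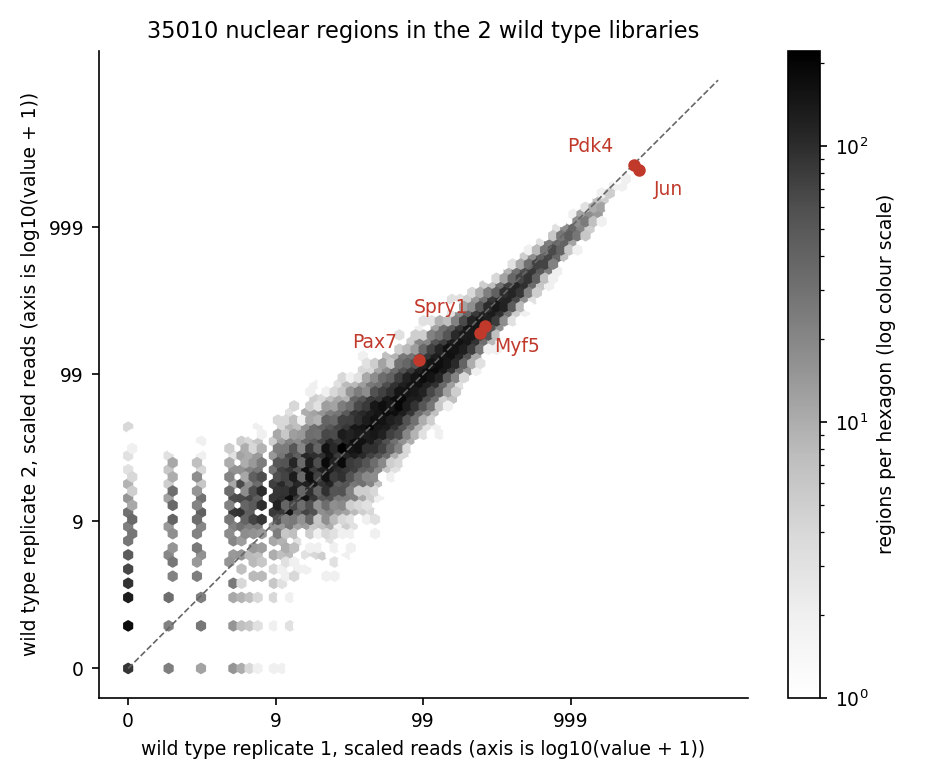
Scaled reads of the 35010 nuclear regions in wild type replicate 1 (x axis) and replicate 2 (y axis), both as log10(value + 1), with darker hexagons holding more regions on a log colour scale and the dashed line marking equal values. Jun, Pdk4, Myf5 and Spry1 lie on or below the line and Pax7, with 93 and 124, above it; the cloud widens toward low values.

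The median absolute log2 difference between the libraries was 0.34 over all regions, 0.26 for promoter regions and 0.42 for unlinked ones. It fell with level, from 1 in the lowest 10% of regions by mean to 0.19 in the highest. Counting error alone would give 0.58 and 0.06 there. The differences between the libraries thus exceeded counting error at each level, by most in proportion where the signal was high. The differences also shifted in sign with level. The median log2 difference, replicate 1 minus replicate 2, was -0.91 in the lowest 10% of regions and 0.15 in the highest. The groups were formed on the mean of the same 2 values, and the libraries differ in depth. This shift therefore cannot tell scatter from a systematic difference.

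**Figure D5:**
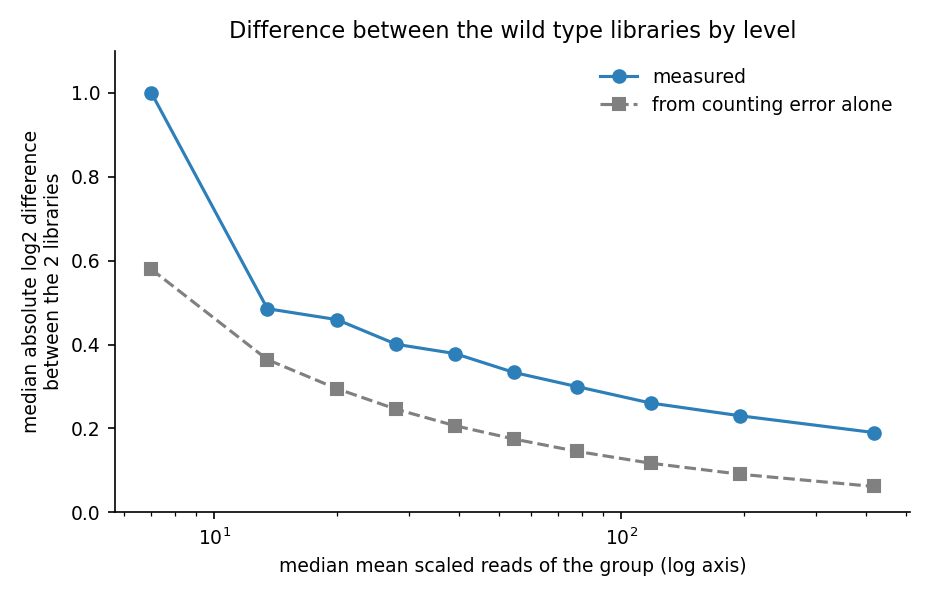
Median absolute log2 difference between the 2 wild type libraries (y axis) in 10 equal groups of regions ordered by mean, placed at the group's median mean in scaled reads (x axis, log scale). Blue circles are measured and grey squares are the value that counting error alone gives for the same reads; the measured values run from 1 down to 0.19, above the grey ones at every level.

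The libraries differed in depth and in balance between promoters and other regions. Reads in nuclear regions numbered about 3175000 in replicate 1 and 7405000 in replicate 2, and mitochondrial regions held 14.0% and 9.31% of all listed reads. A chi-square of the reads over 33409 regions was 4.29 per degree of freedom, so the 2 differed by more than counting error, and 31.4% of these regions differed beyond the 95% range of counting error. Replicate 1 was higher at 66.0% of promoter regions, with a median log2 difference of 0.14, and at 38.7% of unlinked regions, with a median of -0.14. Among the first 100 regions by mean, 90 were higher in replicate 1. With each library divided by its nuclear total, the medians were 0.05 and -0.23, a gap of the same size. The kinds of region differ in level, and among regions of like level, in 10 groups by mean, the gap was 0.10 to 0.20, against 0.28 over all regions. The part of depth or of mitochondrial reads in this gap was not tested.

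The named promoters with the widest disagreement had means of 49 to 76.5 scaled reads, close to the median of 46 that the choice required. Among 8027 named promoter regions above the median mean, Baalc had 12 and 86 scaled reads, a log2 difference of -2.74, and Zfp141, a zinc finger gene, had 39 and 110. Mroh1 had 115 and 38, Spata24 72 and 26, and 2700081O15Rik 84 and 32. These 5 have 2 libraries behind them, and for none of them can it be said which value is typical. At the other end 78 of the 8027 had the same value in both libraries. Taking 5 of these ties by the order of the table's region identifiers gives Spr, Ccser1, Tbc1d19, Fras1 and Zcchc8, with 167, 129, 87, 72 and 55.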

How the data were processed

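ATAC-seq was measured in 4 libraries, and the 2 wild type columns were analysed. The mdx columns served only to check the scaling. The submitters' processing notes name the build mm10 and the tools MACS2 2.1.0, Picard 2.9.0, STAR 2.5.3a, Trimmomatic 0.33, DESeq and DESeq2. The role of each, the handling of duplicates and of the Tn5 offset, how regions were called, and whether starts count from 0 or 1 were not stated. The unit of the deposited values is a score: whole numbers that the authors made by multiplying reads by 1 factor per library. The factors, 1.22 and 0.492, were read from the values, and dividing by them gave about 3693000 and 8165000 reads in all listed regions. Both factors were fitted to values up to 400, so the reads are estimates. Those of replicate 2 are known to about 1 read per region at best. The deposited distance to the gene start placed the promoters, and the deposited fraction of each region inside a gene body entered no result. The table has 0 value columns that map to no sample.

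Regions were ranked in Python 3.11.15 (pandas 2.3.3, NumPy 2.4.6, SciPy 1.17.1). With 2 libraries and no contrast, no test between conditions was made, and a chi-square of reads compares the 2 libraries with counting error only. Values are given per library, and log2 differences use a pseudocount of 1. The recovery of the scaling factors and the chi-square per degree of freedom were tested on simulated data, and the other steps were not. RefSeq starts and genes come from GRCm38.p6. Of the 9767 genes, 76.8% matched an upstream window by symbol, which is under the 80% set for sequence shares over gene lists, so none are given. Named are the 5 markers, the 10 highest named promoter and unlinked regions by mean and per base, the 3 highest, 2 lowest and unlisted members of each list, and the 5 widest and 5 narrowest replicate differences, with ties taken by region identifier. Members described by role and other linked regions were added after their values were seen, as were the comparison with RefSeq starts, the distance steps and the 50 kb flanks. The members and lists were chosen with earlier results of these data known. Results of some genes that this rule takes are not reported here.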

Additional observations from a re-analysis of the deposited data

How the results depend on the processing

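The precision is limited by 2 libraries, of which the shallower holds about 3175000 nuclear reads, and by a table that lists called regions only. Of the comparisons of a result with an alternative that concern whole rankings, lists or replicate agreement, 239 stayed within the tolerance and 35 moved beyond it. The tolerance was 1.5 times for counts, 1 SD between the libraries for percentiles and 0.05 for replicate agreement, the last chosen with its values known. Some comparisons could not move. Counts of genes with a promoter region do not depend on the values, so leaving out a library or rescaling leaves them unchanged. Spearman's rho is likewise unchanged by scaling or pseudocount. The SD comes from the runs that leave out a library, so it is no independent yardstick for those runs. The tally therefore does not measure robustness. Leaving out a library in turn gave 1 to 2 unlinked regions in the first 100 per base. It gave list medians at percentiles 11.6 to 16.9 (fibro-adipogenic), 28.4 to 29.3 (mural), 16.9 to 18.4 (Schwann), 62.7 to 63.9 (housekeeping), 27.6 to 32.7 (ribosomal), 43.9 to 52.1 (differentiation) and 61.5 to 65.1 (cell cycle).

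With nuclear totals the median log2 difference was 0.054 for promoter and -0.23 for unlinked regions. A promoter window of 500 bp left 1 gene of unrelated tissues with a promoter region and put the fibro-adipogenic median at 17.2. A window of 2000 bp gave 5 such genes, with a median of 21.6, and a Schwann median of 9.28. Regions of at least 200 bp gave 1 such gene, and medians of 24.2 (mural), 6.04 (Schwann) and 57.1 (housekeeping). With autosomes only the housekeeping median was 58.7. The first 300 regions held 9 unlinked regions by mean and 17 per base. Without division by width the medians were 37.6 (differentiation), 16.6 (fibro-adipogenic), 12.2 (unrelated tissues), 56.2 (cell cycle) and 71.9 (housekeeping). The region nearest to the start gave 15.8 for Schwann genes. Regions with a mean of at least 50 gave a median absolute log2 difference of 0.25 and an unlinked median of 0. Counting RefSeq starts too, an alternative chosen after seeing the data, left 0 unlinked regions in the first 100 by mean and 1 per base.

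Over 9 alternatives the satellite cell median stayed at percentiles 60.0 to 68.6 and the immediate early median at 80.4 to 83.2. The differentiation median crossed the median gene in 4 of 9, and Pax7, at 37.4 to 59.0, did so in 1. No paired analysis was possible because a single group was described.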

Other observations

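The series title concerns necroptosis, in which a kinase cascade makes the cell burst, so its genes were looked up in the wild type libraries, with lists drawn up after the values had been seen. Of 9 genes of necroptosis and its control, 7 had a promoter region, beside 45.5% of all protein-coding genes. Of the 7, 1 was in the most open 10%, beside 25.3% of all genes with a named promoter region. The list median was at percentile 43.3 of genes per base. Cyld, a deubiquitinase, was highest, with 614 and 485 scaled reads (693 per 1000 bases). Ripk1, the upstream kinase, had 269 and 285 (348 per 1000 bases) and Cflar, an inhibitor of caspase 8, 154 and 138 (320.2 per 1000 bases). Casp8 had 26 and 32 and Zbp1, a nucleic acid sensor, 10 and 16. Ripk3 and Mlkl, the kinase and the effector that define the pathway, had 0 promoter regions. For this list and those below, genes were looked up by the deposited name only. Other linked regions, RefSeq starts and older symbols were not searched for them.

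NuRD is a complex that remodels nucleosomes and removes acetyl groups from histones. Of 12 of its genes, 11 had a promoter region, beside 45.5% of all protein-coding genes. Of the 11, 4 were in the most open 10%, beside 25.3% of all genes with a named promoter region. The list median was at percentile 51.0. Gatad2a had 933 and 719 scaled reads (1142 per 1000 bases), Mbd2 821 per 1000 bases, Hdac2 769.6 and Rbbp7 685. Chd4, the remodelling subunit, had 54 and 37 (151 per 1000 bases), below Hdac1 with 238. Mbd3 had 0 promoter regions.

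The dystrophin complex ties the cytoskeleton to the basal lamina. Of 12 of its genes, 10 had a promoter region, beside 45.5% of all protein-coding genes. Of the 10, 2 were in the most open 10%, beside 25.3% of all genes with a named promoter region. Dmd, the dystrophin gene, had 32 and 46 scaled reads at the start the table uses (125.0 per 1000 bases). Its homologue Utrn had 316 and 257 (555 per 1000 bases), besides the open intronic region given above, and the sarcoglycan gene Sgcb had 303 and 292 (456 per 1000 bases). Sgca and Sgcd had 0 promoter regions. No value here was compared with the mdx libraries.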
